A study of Mus musculus with 40 samples.

Results

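The unfolded protein response and the integrated stress response were followed in mouse liver through 10 genes, *Hspa5*, *Hsp90b1*, *Pdia4*, *Dnajb9*, *Xbp1*, *Atf4*, *Ddit3*, *Trib3*, *Asns* and *Creb3l3*. These genes were taken by symbol from a table of 21448 gene symbols and 30146 probes, in which they had 19 probes. The most counted probe of each gene gave its values. The other 9 probes served as a check. All 10 most counted probes and 7 of the other 9 passed the filter on low counts.

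The study exposed male and female wild-type Crl:CD1(ICR) mice, individually housed, to the ammonium salt of the perfluoroalkyl ether acid GenX by oral gavage for 90 days. Doses were 0.1, 0.5 and 5 mg/kg bw/day in deionized water, and control mice (0 mg/kg) received the deionized water. RNA was read from a formalin-fixed, paraffin-embedded liver section of each mouse with TempO-Seq, in which pairs of probes that meet on a transcript are ligated, amplified and counted. There were 5 mice in each of the 8 groups of sex and dose. Female mouse 355 of the 0.5 mg/kg group was left out for its low depth, so that group held 4 mice and 39 libraries were compared.

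The 39 libraries held 10341341 to 15562253 reads. Reads per captured molecule were estimated from the tallest peak in the smoothed histogram of low read counts within each library. This peak lay between 20.8 and 49.8 reads. The libraries then came to 287241 to 656745 molecules, with a median of 329947 in control males, 591294 in males at 5 mg/kg, 418492 in control females and 320469 in females at 5 mg/kg. Values are given in CPM, the reads of a probe set against the scaled total of its library. Because a probe's count also reflects how well that probe works, levels were compared between mice for a gene and not between genes. Bulk RNA of a section cannot tell fewer cells of a type from less RNA per cell. Log2 fold changes are given ± SE, a gene was called when its Benjamini-Hochberg adjusted p from edgeR's quasi-likelihood test was below 10%, and the p-values measure the spread between mice. The 3 doses of each sex share their control mice. The hepatocyte markers were present in every group, with a summed level of 45914.1 to 55666 CPM in control males and 38377 to 59067 CPM in control females.

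As background, proteins that enter the endoplasmic reticulum (ER) are folded there by chaperones, and an excess of unfolded protein frees the sensors IRE1 alpha, PERK and ATF6 from the chaperone BiP. IRE1 alpha splices *Xbp1* mRNA, ATF6 is cleaved into a transcription factor, and both raise chaperone and degradation genes, while PERK phosphorylates eIF2 alpha. Phosphorylated eIF2 alpha, which other kinases make during amino acid shortage, lowers protein synthesis in general and favours translation of ATF4, which with CHOP raises genes for amino acid supply. CREB3L3 is a liver-enriched, ER-anchored relative of ATF6 that acts on acute phase and lipid genes. Splicing, cleavage, phosphorylation and translation are not measured by a probe count.

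The promoters of some chaperone genes carry the ER stress response element, and that of *Asns* an element read by ATF4. These short stretches are shown because they mark the members with such an element, and *Creld2* and *Syvn1*, which hold it too, were among the genes whose levels ran closest to *Hspa5*. Sequences are RefSeq's on GRCm38.p6, 5′ to 3′ on the strand of the gene, with the element in capitals.

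*Hspa5*, chr2:34772020-34772048, plus strand: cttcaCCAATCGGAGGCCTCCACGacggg
*Hsp90b1*, chr10:86705633-86705661, minus strand: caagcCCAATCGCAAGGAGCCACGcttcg
*Hsp90b1*, chr10:86705528-86705556, minus strand, element on the opposite strand: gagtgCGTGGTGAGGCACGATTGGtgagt
*Creld2*, chr15:88819515-88819543, plus strand, element on the opposite strand: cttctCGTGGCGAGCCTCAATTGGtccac
*Syvn1*, chr19:6046527-6046555, plus strand: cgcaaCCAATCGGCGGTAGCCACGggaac
*Asns*, chr6:7693214-7693242, minus strand: cccagccacaTGATGAAACttcccgcacg

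The first 5 stretches hold the ER stress response element, searched as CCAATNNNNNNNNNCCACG on both strands of the 250 bases before each RefSeq gene start. It was found in 37 of 32851 such windows, or 0.113%. Of the 10 members, *Hspa5* and *Hsp90b1* held it. The element of *Hspa5* lay 65 to 47 bases before the start, and those of *Hsp90b1* lay 212 to 194 and 107 to 89 bases before it. The element of *Creld2* lay 126 to 108 bases before its start and that of *Syvn1* 44 to 26 bases before its own. The ATF4 element was searched as TGATGAAAC and was found in 70 windows, or 0.213%, and *Asns* alone of the members held it, 23 to 15 bases before the start. The stretches of *Hspa5* and *Asns* lie inside the GENCODE M21 gene models, which begin further upstream than RefSeq's. A missing match says only that these letters are not in the window.

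Across the 10 members, few calls were made, and the genes did not all share a direction. At 5 mg/kg 5 of 10 members in males and 6 of 10 in females had an unadjusted p below 0.05 in edgeR. In males at 0.5 mg/kg 3 of 10 did. The share of all genes at that unadjusted threshold was not computed, and each share of all genes given here is of genes called. With *Asns* counted, 6 members lay above 0 and 4 below in males at 5 mg/kg. In females at 5 mg/kg 2 lay above 0 and 8 below. In males at 5 mg/kg 1 of 10 members was called, *Creb3l3*, beside 9.35% of the 12412 genes tested. DESeq2 called 3 there, adding *Hsp90b1* and *Xbp1*, beside 1864 of 17852 probes called. Counts in molecules gave 5, adding *Pdia4* and *Trib3* to those, and the share of all probes called in molecules was not computed. The median log2 fold change of the members there was 0.10, and that of all genes 0.11. In females at 5 mg/kg 1 of 10 was called, *Xbp1*, beside 4.09% of all genes, and the members' median was -0.31 against -0.01 over all genes. In males at 0.5 mg/kg 1 of 10 was called, again *Creb3l3*, beside 2.61% of all genes. Among the members whose 5 treated and 5 control values did not overlap were *Trib3* and *Creb3l3* in males at 5 mg/kg, 2 of 10 beside 9.3% of all genes, and *Xbp1* and *Creb3l3* in females at 5 mg/kg, 2 of 10 beside 3.71% of all genes.

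At the other doses no member was called. In males at 0.1 mg/kg edgeR and DESeq2 called 0 of 10, beside 0.0403% of all genes called by edgeR. There 1 member had an unadjusted p below 0.05 in edgeR. In females at 0.1 mg/kg both tools called 0 of 10, beside 0% of all genes called by edgeR, and 0 members had an unadjusted p below 0.05. In females at 0.5 mg/kg both called 0 of 10, beside 0.201% of all genes called by edgeR, and 0 members had an unadjusted p below 0.05. A step between doses showed more. From 0.5 to 5 mg/kg, 2 of 10 members fell in males, *Hspa5* and *Pdia4*, beside 3.01% of all genes called and 1.84% called lower. In females 1 of 10 fell over the same step, *Hspa5*, beside 1.38% called and 0.749% called lower. Each of these calls of a member, against controls or between doses, was lost when mouse 355 was put back and all 40 libraries were fitted. From 0.1 to 0.5 mg/kg both tools called 0 of 10 in males, with 1 at an unadjusted p below 0.05 and 0.596% of all genes called, and 0 of 10 in females, with 2 at an unadjusted p below 0.05 and 0.185% of all genes called.

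**Figure D1:**
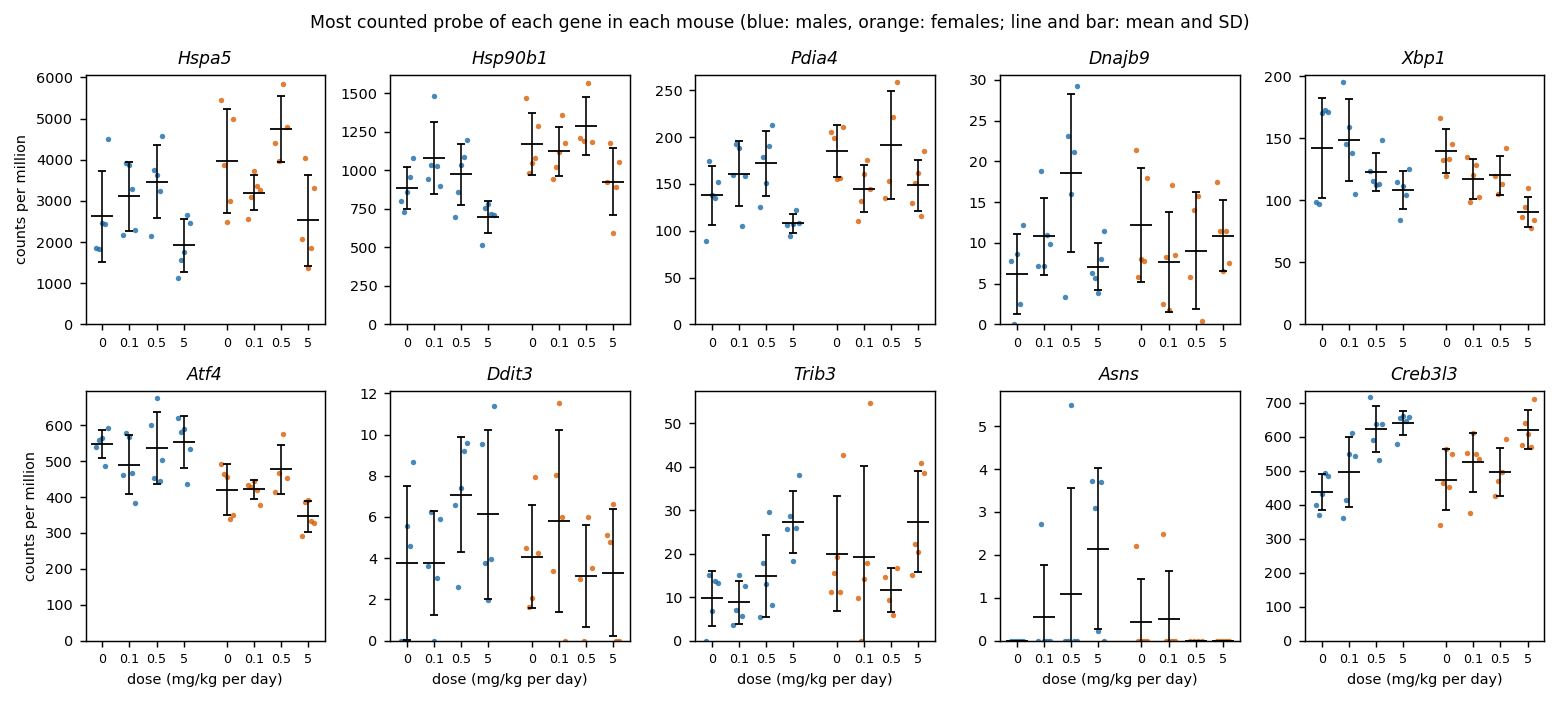
Level of the 10 members in each of the 39 mice, in CPM, by dose in mg/kg bw/day, with males and females apart; each point is a mouse and the bars give the group mean and SD. *Creb3l3* in males sat at 371 to 493 CPM in controls and 577 to 661 CPM at 5 mg/kg, and *Hspa5* was lower at 5 than at 0.5 mg/kg on average in both sexes.

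*Hspa5* encodes BiP, the chief chaperone of the ER and the protein that holds the sensors inactive (chr2:34771970-34777547 in GENCODE M21). In control males its level was 1839.9, 1858, 2444, 2462 and 4507 CPM. At 0.5 mg/kg it was 2139.8, 3240.0, 3619.6, 3752 and 4575 CPM. At 5 mg/kg it was 1133, 1553, 1762, 2463 and 2668 CPM. Of the males at 5 mg/kg 3 lay below every control and the other two within the control range, the males at 0.5 mg/kg covered its middle and upper part, and all 3 groups overlapped. Against controls the log2 fold change was 0.40 ± 0.24 at 0.5 mg/kg (adjusted p = 0.453) and -0.45 ± 0.24 at 5 mg/kg (adjusted p = 0.266), neither of which was called. From 0.5 to 5 mg/kg *Hspa5* fell by 0.85 on the log2 scale (SE 0.24, 95% interval -1.33 to -0.38, adjusted p = 0.0464). That call was lost without mouse 302, 305, 401, 402 or 403.

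Females had the same order of means over controls, 0.5 and 5 mg/kg. The mean at 0.1 mg/kg lay above controls in males (3110 against 2622 CPM) and below them in females (3194 against 3964 CPM). Control females had 2483, 3005, 3870.3, 4999 and 5461 CPM of *Hspa5*. The 4 females at 0.5 mg/kg had 3966, 4406, 4806 and 5835 CPM. Females at 5 mg/kg had 1378, 1857, 2071, 3318 and 4039 CPM. Only the highest of the females at 5 mg/kg reached into the range at 0.5 mg/kg. The fall from 0.5 to 5 mg/kg was called, with a log2 fold change of -0.91 ± 0.25 (95% interval -1.41 to -0.41, adjusted p = 0.0728). Against control females the value at 5 mg/kg was -0.65 ± 0.24 (adjusted p = 0.198). DESeq2 did not make the call between doses, and it was lost without mouse 351, 353, 354, 451, 453 or 454.

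The probe decided how *Hspa5* read in males. Its second probe gave 220.0, 254, 255, 329 and 549 CPM in control males. The same probe gave 385, 582, 748, 749.7 and 1049.6 CPM at 0.5 mg/kg. It gave 178, 408, 439, 509 and 590.2 CPM at 5 mg/kg. On this probe 4 of the 5 males at 0.5 mg/kg lay above every control, and the rise of 1.13 ± 0.27 on the log2 scale was called (adjusted p = 0.0146). A further probe rose by 1.15 ± 0.26 at 0.5 mg/kg (adjusted p = 0.00744). At 5 mg/kg these probes stood at 0.40 (adjusted p = 0.474) and 0.48 (adjusted p = 0.275), above controls where the most counted probe stood below them, and none of the 3 was called.

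In females the 3 probes kept together, with log2 fold changes at 5 mg/kg of -0.65, -0.72 and -0.62, none called. The log2 ratio of the most counted *Hspa5* probe to the mean of the other probes was 3.08 ± 0.098 (SD, n = 5) in control males, and 2.83 ± 0.25, 2.39 ± 0.17 and 2.21 ± 0.17 at 0.1, 0.5 and 5 mg/kg. In females the means of the 4 groups lay between 2.60 and 2.74. In males this ratio fell with dose while the median of molecules per library rose. That median was 329947 in controls and 331954, 448080 and 591294 at 0.1, 0.5 and 5 mg/kg. It hardly differed between controls and 0.1 mg/kg, and the part of the molecules in the ratio was not tested. In each sex the fall from 0.5 to 5 mg/kg had the same sign on all 3 probes, at -0.73 and -0.67 in males and -0.89 and -0.82 in females on the other probes, none of them called.

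**Figure D2:**
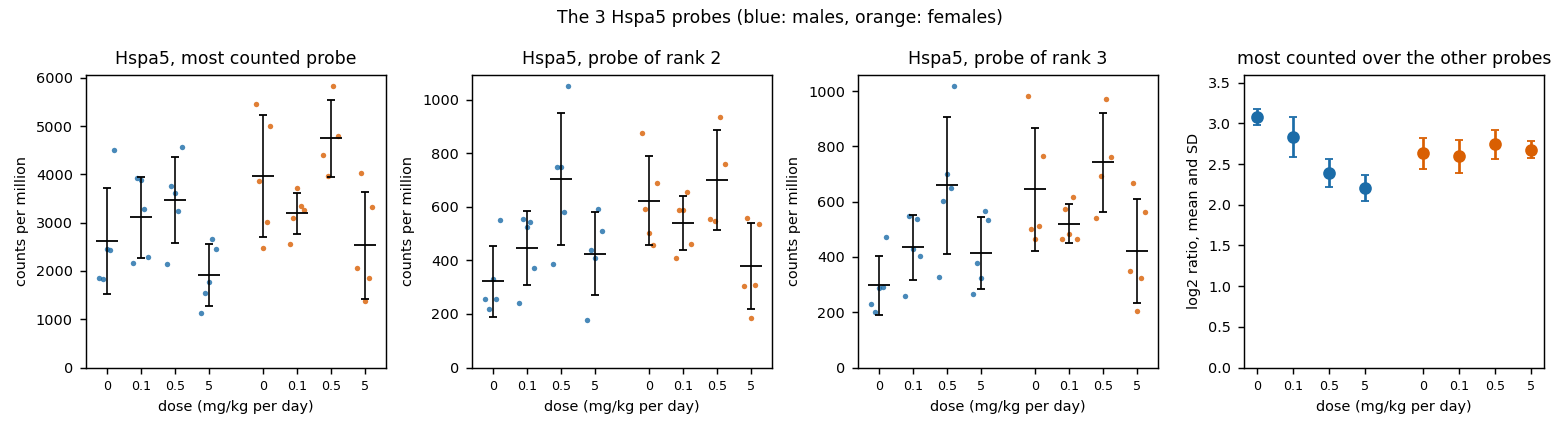
The 3 probes of *Hspa5* in CPM by dose in mg/kg bw/day and sex, 1 point per mouse with group mean and SD, and the log2 ratio of the most counted probe to the mean of the others, as mean and SD. In males the most counted probe was lower at 5 mg/kg than in controls on average (1916 against 2622 CPM) while the other probes were not.

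*Hsp90b1* encodes GRP94, the ER member of the HSP90 chaperones (chr10:86690209-86705509). It measured 733, 799.8, 858, 958 and 1082 CPM in control males and 514, 712, 718, 752 and 781 CPM in males at 5 mg/kg. In females it measured 982, 1048, 1079, 1289.8 and 1467 CPM in controls and 593, 890.0, 923, 1057 and 1176 CPM at 5 mg/kg. Both pairs of groups overlapped, with the treated mice in the lower part. In males the log2 fold change was -0.35 ± 0.16 (adjusted p = 0.193). In females it was -0.34 ± 0.16 (adjusted p = 0.258), and neither was called, though in males DESeq2 (adjusted p = 0.0891) and counts in molecules (adjusted p = 0.0381) called it. The second probe of *Hsp90b1* was called lower in both sexes, at -0.54 for the males (adjusted p = 0.0592) and -0.56 for the females (adjusted p = 0.0808).

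*Pdia4* encodes a protein disulfide isomerase, which forms and rearranges disulfide bonds (chr6:47796141-47813430). Its level in males was 88.9, 135, 139, 152 and 175 CPM in controls. At 0.5 mg/kg it was 125, 152, 179, 190.5 and 214 CPM. At 5 mg/kg it was 94.2, 107, 108, 108 and 122 CPM. Every male at 5 mg/kg lay below every male at 0.5 mg/kg, while both groups overlapped the controls. The fall from 0.5 to 5 mg/kg was -0.67 ± 0.19 (95% interval -1.04 to -0.31, adjusted p = 0.0397), and it was lost without mouse 304, 305 or 402. Against controls the value at 5 mg/kg was -0.36 for males (adjusted p = 0.254) and -0.32 for females (adjusted p = 0.434).

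*Dnajb9* encodes ERdj4, a co-chaperone of BiP and a classic target of spliced XBP1 (chr12:44205559-44210326). It was thinly counted, at 0, 2.54, 7.72, 8.66 and 12.2 CPM in control males. Males at 0.5 mg/kg had 3.36, 16, 21.2, 23.1 and 29.2 CPM, and 4 of these 5 lay above every control. Males at 5 mg/kg had 3.89, 5.64, 6.35, 8.02 and 11.5 CPM, within the control range. The log2 fold change of 1.58 ± 0.75 at 0.5 mg/kg was not called (adjusted p = 0.26), but with the probes of *Dnajb9* summed it was, at 1.73 (adjusted p = 0.0391). At 5 mg/kg it was 0.19 in males and -0.16 in females.

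*Xbp1* encodes the transcription factor that IRE1 alpha activates by splicing (chr11:5520659-5525893). The probe count does not separate spliced from unspliced mRNA. In females *Xbp1* was 119.8, 133, 133, 145 and 167 CPM in controls. At 5 mg/kg it was 77.8, 83.9, 86.8, 94.2 and 109.6 CPM, and every treated female lay below every control. It fell by 0.62 on the log2 scale (SE 0.17, 95% interval -0.96 to -0.28, adjusted p = 0.0312). The call was lost without mouse 151 or 454. Females at 0.1 and 0.5 mg/kg, at 98.9 to 135 and 105 to 142 CPM, overlapped the controls.

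In males *Xbp1* was 97.2, 98.9, 170.3, 171 and 173 CPM in controls and 84.5, 105, 111, 115 and 125 CPM at 5 mg/kg. The controls fell in a low pair and a high trio, and the treated males overlapped the low pair. The log2 fold change was -0.40 ± 0.17 and was not called (adjusted p = 0.183), while DESeq2 (adjusted p = 0.0566) and counts in molecules (adjusted p = 0.0187) called it. A second, weaker probe of *Xbp1* gave -0.50 in females at 5 mg/kg (adjusted p = 0.841).

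*Atf4* encodes the transcription factor at the centre of the integrated stress response, controlled mostly through translation (chr15:80255184-80257541). In males it was 488, 539, 560.4, 564 and 592 CPM in controls and 437, 535, 583, 589.9 and 622 CPM at 5 mg/kg. These ranges overlapped nearly in full, and the log2 fold change was 0.01 ± 0.14 (95% interval -0.26 to 0.28). In females it was 338, 350.3, 455, 465 and 493 CPM in controls and 291, 328, 334, 386 and 393 CPM at 5 mg/kg. The females at 5 mg/kg overlapped the controls but lay below all 4 females at 0.5 mg/kg, which had 415 to 576 CPM. Neither the value against controls, -0.28 (adjusted p = 0.273), nor that against 0.5 mg/kg, -0.46 (adjusted p = 0.152), was called. The fall of *Atf4* from 0.5 to 5 mg/kg in females was called by DESeq2 (adjusted p = 0.0552), in molecules (adjusted p = 0.0496) and with all 40 libraries (-0.79, adjusted p = 0.0426). The last of these fits includes female 355 of the 0.5 mg/kg group, left out elsewhere for its low depth. In that library *Atf4* was 1124 CPM with all 40 libraries scaled together.

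*Ddit3* encodes CHOP, the partner of ATF4 linked to cell death under lasting ER stress (chr10:127290774-127296288). Its counts were close to the level of single molecules. It measured 0, 0, 4.6, 5.54 and 8.67 CPM in control males and 1.98, 3.74, 3.98, 9.53 and 11.4 CPM at 5 mg/kg. In females at 5 mg/kg it measured 0, 0, 4.78, 5.12 and 6.61 CPM. The log2 fold changes at the highest dose, 0.70 ± 1.34 in males and -0.30 in females, leave a wide range, so that no difference was detectable at this depth.

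*Trib3* encodes a pseudokinase that ATF4 and CHOP induce and that feeds back on them (chr2:152337422-152344032). In males it was 0, 6.79, 13.2, 13.7 and 15 CPM in controls and 5.5, 8.25, 12.9, 17.8 and 29.6 CPM at 0.5 mg/kg. At 5 mg/kg it was 18.2, 25.6, 26, 28.7 and 38.1 CPM, with every male above every control. The log2 fold change of 1.49 ± 0.72 (95% interval 0.07 to 2.91) had an adjusted p of 0.216 and was not called with counts of reads. With counts divided into molecules *Trib3* passed the threshold. In females it was 11.1, 11.1, 15.4, 19.3 and 42.7 CPM in controls and 15, 20.3, 22.1, 38.4 and 40.9 CPM at 5 mg/kg. The female groups overlapped, and the log2 fold change was 0.46 ± 0.71.

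*Asns* encodes asparagine synthetase, a standard ATF4 target during amino acid shortage (chr6:7675169-7693254). Its probe had a read in 8 of 39 libraries. All 5 control males had 0 reads. The 5 males at 5 mg/kg had 0, 3, 52, 52 and 55 reads, or 0, 0.229, 3.09, 3.69 and 3.72 CPM. In those males the tallest peak of a library's low read counts, taken as 1 molecule, lay between 20.8 and 28.4 reads. Each value therefore stood for a few molecules at most. The 5 control libraries held 1647106 molecules in all, and 3 molecules among them would be 1.82 CPM counted in molecules, a limit that covers counting error only. No fold is given for this gene. In the other male groups 1 mouse at 0.1 mg/kg had 2.71 CPM and 1 at 0.5 mg/kg had 5.49 CPM, and in females 1 control had 2.21 CPM, 1 mouse at 0.1 mg/kg had 2.5 CPM and the rest had 0.

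*Creb3l3* encodes CREB-H, the liver-enriched ER-anchored factor (chr10:81084324-81098874). It was 371, 399.8, 433, 485 and 493 CPM in control males. Males at 0.1 mg/kg had 361, 413, 544, 549 and 610.3 CPM. Males at 0.5 mg/kg had 532, 589.7, 638, 638 and 716 CPM. Both the males at 0.5 mg/kg and those at 5 mg/kg, with 577, 645, 655, 658 and 661 CPM, lay above every control, while 3 of the 5 at 0.1 mg/kg did. *Creb3l3* rose 1.46-fold at 5 mg/kg, or by 0.55 ± 0.14 on the log2 scale (95% interval 0.27 to 0.83, adjusted p = 0.0077). At 0.5 mg/kg it rose by 0.51 ± 0.14 (95% interval 0.24 to 0.79, adjusted p = 0.0453). The call at 5 mg/kg held when each of the 10 mice was left out in turn, and that at 0.5 mg/kg held in 7 of 10 and was lost without mouse 101, 102 or 301.

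In females *Creb3l3* was 339, 452, 465, 550.3 and 562 CPM in controls and 571, 575, 607, 641 and 711 CPM at 5 mg/kg. Every treated female lay above every control, the nearest pair being 562 and 571 CPM. The log2 fold change of 0.39 ± 0.14 (95% interval 0.11 to 0.67) was not called (adjusted p = 0.174), though DESeq2 called it. The second probe gave a smaller value in males at 5 mg/kg, 0.31 (adjusted p = 0.183), with 279, 301, 317, 359 and 382 CPM in controls and 369.5, 384, 398, 408 and 468 CPM at 5 mg/kg. On that probe the value at 0.5 mg/kg was 0.07, and with the probes summed *Creb3l3* was called at the highest dose alone.

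**Figure D3:**
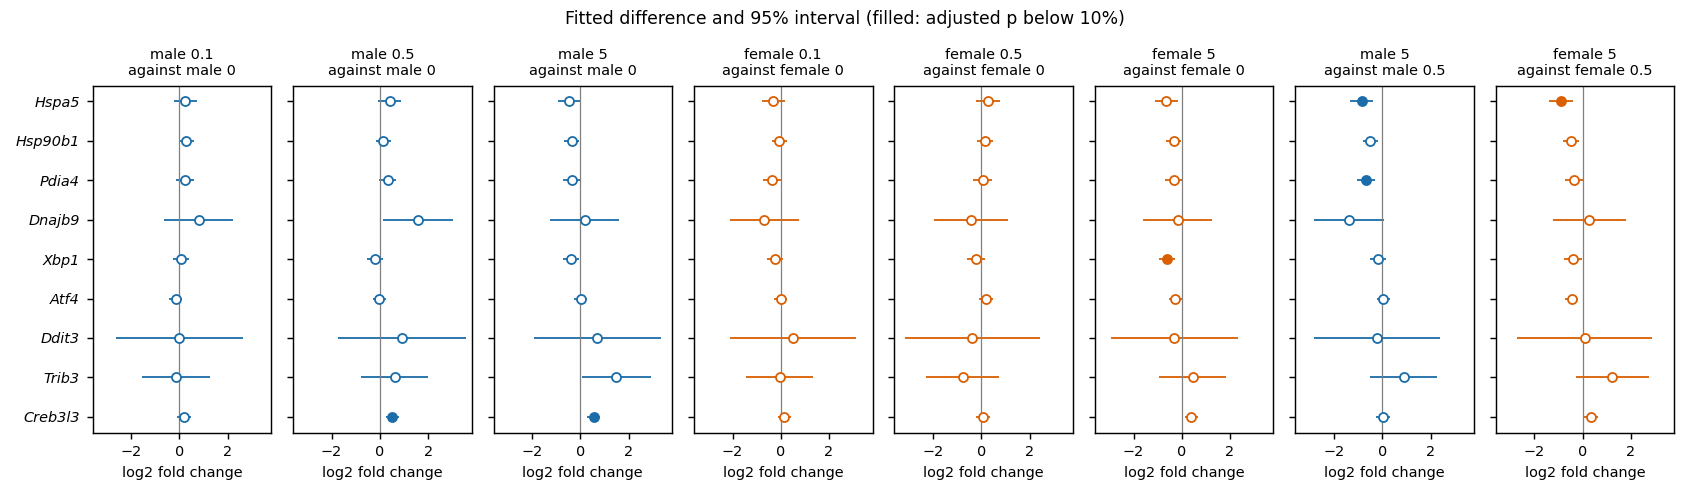
Log2 fold change of the members against the controls of the same sex at 0.1, 0.5 and 5 mg/kg bw/day, and of 5 against 0.5 mg/kg, with 95% intervals; filled points passed the threshold of 10% on the adjusted p. *Asns*, with no read in any control male, is left out, and the called values are *Creb3l3* in males (0.51 and 0.55) and *Xbp1* in females (-0.62) against controls, and *Hspa5* in both sexes and *Pdia4* in males between doses.

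The remaining genes of each branch were counted over lists that include the members. Of 22 ER chaperones and folding enzymes, 21 were tested. In males at 5 mg/kg 6 fell and none rose, beside 3.75% of all genes called lower and 5.59% called higher, and 17 of the 21 had a log2 fold change below 0. The median of the list was -0.41 where that of all genes was 0.11. *Ppib*, a prolyl isomerase of the ER, fell from a mean of 624 to 332 CPM (-0.91 ± 0.13, adjusted p = 3.42e-07). *Ero1lb*, an oxidase that recharges disulfide isomerases, fell by 1.57 ± 0.40 (adjusted p = 0.00639). *Sdf2l1*, a partner of BiP, fell by 1.41 ± 0.33 (adjusted p = 0.00261), and *Pdia5*, a disulfide isomerase, fell by 1.17 ± 0.22 (adjusted p = 0.000173).

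In females at 5 mg/kg 3 chaperone genes fell and none rose, beside 2% of all genes called lower and 2.09% called higher, 20 of the 21 were below 0, and the median was -0.34 against -0.01. *Ppib* was one of them, at -0.57 (adjusted p = 0.00258). *Dnajb11*, a co-chaperone of BiP, and *P4hb*, the founding disulfide isomerase, fell in both sexes; both were chosen after their values were seen. *Dnajb11* fell by 0.67 in males, with an adjusted p of 0.0187. It fell by 0.62 in females, with an adjusted p of 0.063. From 0.5 to 5 mg/kg 9 of the 21 fell in males, beside 1.84% of all genes called lower. All 21 were below 0 there, with a median of -0.67 against 0.08 over all genes. In females 3 fell over that step, beside 0.749% of all genes called lower, 19 were below 0 and the median was -0.37. At 0.5 mg/kg against control males 1 chaperone gene rose and 1 fell, beside 1.88% of all genes called higher and 0.733% lower. Both were also named after their values were seen: *Creld2*, a secreted ER stress protein, rose by 1.56 (adjusted p = 0.0287) and *Ppib* fell by 0.50 (adjusted p = 0.0182).

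Of 22 genes of ER-associated degradation and export, all tested, 2 fell in each sex at 5 mg/kg and none rose. Of all genes 3.75% were called lower and 5.59% higher in males, and 2% lower and 2.09% higher in females. The list's median was -0.32 in both sexes, against 0.11 over all genes in males and -0.01 in females. With the 1 gene of each sex that had no read in a whole group set at the bound of 3 molecules, the medians were -0.17 and -0.29. *Spcs3*, a subunit of the signal peptidase, fell by 0.51 in males, with an adjusted p of 0.0168. It fell by 0.44 in females, with an adjusted p of 0.088, which rose to 0.118 with DESeq2's size factors, 0.165 without the filter, 0.179 with females fitted alone and 0.322 with all 40 libraries. *Spcs2*, another subunit, fell by 0.59 in males (adjusted p = 0.0569). *Herpud1*, which organizes the degradation complex, fell in females by 1.21 ± 0.36 (adjusted p = 0.0493), from 112 to 488 CPM in controls to 18.4 to 166 CPM. In males it stood at -0.95 ± 0.35 (adjusted p = 0.116). With each sex fitted alone *Herpud1* was called in males (adjusted p = 0.0222) and not in females (adjusted p = 0.104), and 4 other alternatives also called it in males, with adjusted p from 0.00409 to 0.0916.

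Of the 11 sensors and transcription factors of the unfolded protein response, edgeR called only members already given at 5 mg/kg. These were *Creb3l3* in males and *Xbp1* in females, beside 9.35% and 4.09% of all genes called. *Eif2ak3*, the gene of PERK, stood at 0.33 in males and -0.14 in females. *Creb3l2*, a further ER-anchored factor, stood at -0.88 (adjusted p = 0.188) and -1.12 (adjusted p = 0.149). Of 13 eIF2 alpha kinases, phosphatase subunits and eIF2B subunits, edgeR and DESeq2 called 0 in either sex at 5 mg/kg. EdgeR called 9.35% of all genes there in males and 4.09% in females, so 0 of 13 is little below these shares. Of the 13, 0 had an unadjusted p below 0.05. Their most counted members, *Eif2b4* and *Eif2ak1*, stood at -0.08 and -0.07 in males and at 0.39 and 0.15 in females.

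Of 29 target genes of ATF4 and CHOP, 25 were tested. In males at 5 mg/kg 4 rose and none fell, beside 5.59% of all genes called higher and 3.75% lower, and the list's median was 0.88. In females none rose and 1 fell, beside 2.09% called higher and 2% lower, and the median was 0.06. With genes that had no read in a whole group set at the bound that 3 molecules over that group allow, 6 genes in males and 7 in females, the medians were 0.46 and 0. *Slc3a2*, the heavy chain of amino acid transporters, rose from 74.7 to 93.6 CPM in control males to 145 to 288 CPM at 5 mg/kg (1.41 ± 0.18, adjusted p = 3.67e-08). In females it stood at 96.1 to 153 CPM in controls and 123 to 149 CPM at 5 mg/kg (0.19 ± 0.17, adjusted p = 0.888). *Vldlr*, a lipoprotein receptor that is also a target of PPAR alpha, had a read in 1 of 5 control males and measured 10.1 to 32 CPM in all 5 males at 5 mg/kg (adjusted p = 0.0149). *Mthfd2*, a mitochondrial enzyme of one-carbon metabolism, had a read in 2 of 5 control males and measured 5.47 to 26.8 CPM at 5 mg/kg (adjusted p = 0.0825). *Nupr1*, a stress-induced chromatin protein, had no read in any control male and 0 to 10.8 CPM at 5 mg/kg, with reads in 4 of 5 mice. The gene that fell in females was *Atf5*, an ATF4 relative, from 1241 to 1517 CPM in controls to 683 to 1034 CPM (-0.73 ± 0.14, adjusted p = 0.000573).

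Of 13 aminoacyl-tRNA synthetases under ATF4, 1 rose in males at 5 mg/kg, beside 5.59% of all genes called higher, and the median was 0.41. This was *Gars*, the glycine enzyme, which rose by 1.16 ± 0.30 (adjusted p = 0.00881) from 16.5 to 32.6 CPM in controls to 42 to 65.1 CPM. In females edgeR and DESeq2 called 0 of the 13, beside 4.09% of all genes called by edgeR. There 1 of the 13 had an unadjusted p below 0.05, and *Gars* stood at 0.12.

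Of 10 liver target genes of CREB3L3, 1 rose and 5 fell in males at 5 mg/kg, beside 5.59% of all genes called higher and 3.75% lower, with a median of -0.74. In females 4 fell, beside 2% called lower, with a median of -0.28. *Apoa4*, an apolipoprotein of triglyceride-rich lipoproteins, fell by 2.36 ± 0.34 in males, with an adjusted p of 9.77e-07. It fell by 3.20 ± 0.35 in females, with an adjusted p of 2.41e-09. *Hamp*, the gene of the iron hormone hepcidin, fell by 1.63 ± 0.30 in males (adjusted p = 0.000126) and stood at -0.19 in females. *Apcs*, the gene of serum amyloid P, fell by 1.65 ± 0.33 in females (adjusted p = 0.000801) and stood at -0.80 in males (adjusted p = 0.15). In males *Apcs* was called without the filter (adjusted p = 0.0285), with males fitted alone (adjusted p = 0.0954) and in molecules (adjusted p = 0.0358). *Cidec*, a lipid droplet protein, had no read in any control male and measured 2.77 to 11.7 CPM in the 5 males at 5 mg/kg.

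**Figure D4:**
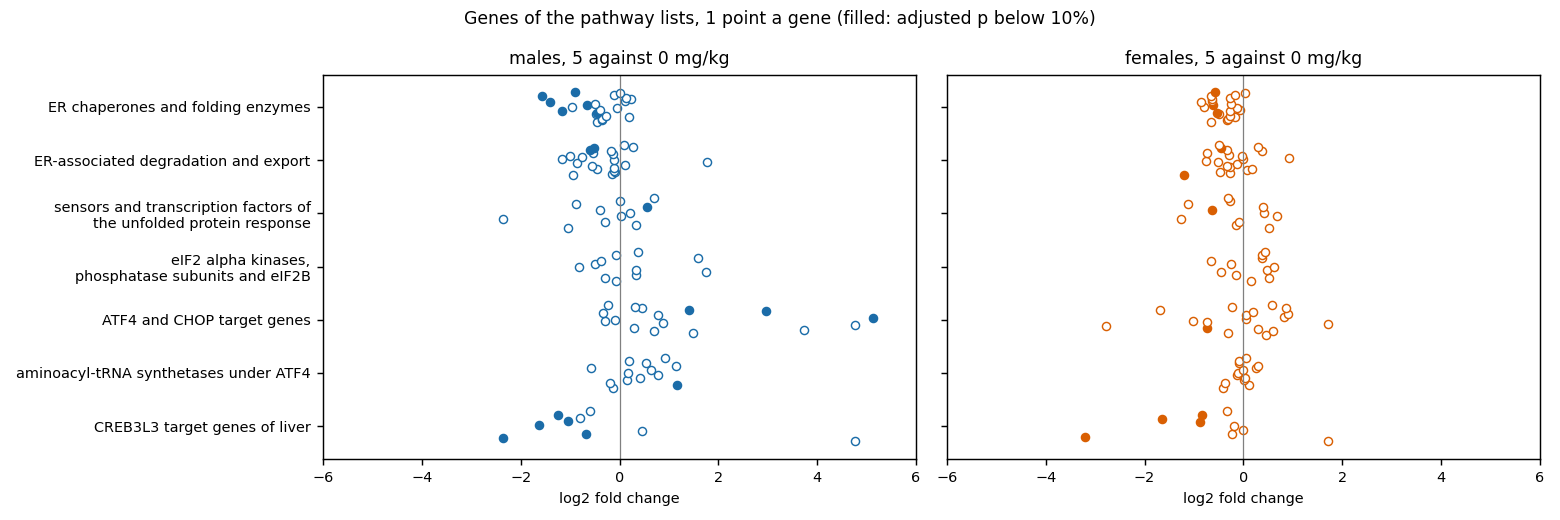
Log2 fold change at 5 mg/kg bw/day against the controls of the same sex for each gene of the pathway lists, 1 point per gene, males and females apart, with called genes filled. Genes with no read in one whole group, such as *Nupr1* and *Cidec*, and genes with a read in under 4 libraries of both groups are left out; most chaperone genes lie below 0 in both sexes.

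Other liver genes moved beside these lists. The summed level of the 9 hepatocyte markers was 45914.1 to 55666 CPM in control males and 24550.3 to 34707 CPM at 5 mg/kg. In these males 6 of 9 fell, beside 3.75% of all genes called lower. In females the summed level was 38377 to 59067 and 28541.5 to 37626.5 CPM, and 5 of 9 fell, beside 2% of all genes called lower. *Ass1*, a urea cycle enzyme of hepatocytes, fell by 1.29 in males and 0.93 in females. The stellate cell markers summed to 67.3 to 133 CPM in control males and 157 to 196 CPM at 5 mg/kg. There 2 of 7 rose, *Col1a1* by 1.63 and *Col3a1* by 2.45, beside 5.59% of all genes called higher. Of the 7, 4 lay above 0 and 3 below, with a median log2 fold change of 0.15 against 0.11 over all genes. In females the same markers overlapped, at 103 to 160 and 95.5 to 154 CPM, with 0 of 7 called beside 4.09% of all genes. Of these 7, 0 had an unadjusted p below 0.05. Of 6 endothelial markers 1 fell in males and none in females, beside 3.75% and 2% of all genes called lower. Of the 7 Kupffer cell, 3 cholangiocyte and 7 lymphocyte markers tested none was called in either sex, beside 9.35% of all genes in males and 4.09% in females. *Timd4* of Kupffer cells and *Epcam* and *Sox9* of cholangiocytes were at 0 both in control males and in males at 5 mg/kg. *Marco* of Kupffer cells, *Lyve1* of endothelium and *Cd3e* of T cells were at 0 in males at 5 mg/kg and not in control males, and *Krt7* of cholangiocytes the other way round. The part of these shifts in the results on the members was not tested.

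The sexes were compared directly. Between control females and control males edgeR called 0 of 10 members, beside 3.89% of all genes, with 5 members at an unadjusted p below 0.05. DESeq2 called 1 member, *Atf4*, beside 1092 of 17571 probes. *Hspa5* was higher in control females by 0.60 on its most counted probe (adjusted p = 0.239). Its other probes were called, at 0.95 (adjusted p = 0.0423) and 1.12 (adjusted p = 0.00652). The difference between the male and the female response was called for 0 of 10 members at each dose by edgeR and by DESeq2. EdgeR called it for 0%, 0.322% and 1.19% of all genes at 0.1, 0.5 and 5 mg/kg. At these doses 1, 2 and 1 members had an unadjusted p below 0.05 in edgeR, a threshold at which all genes were not counted. *Creb3l3*, called in males and not in females at 5 mg/kg, and *Xbp1*, called in females and not in males, with DESeq2 calling both genes in both sexes, are therefore not shown to differ between the sexes. Among the list genes named here the response at 5 mg/kg differed for *Slc3a2* by 1.22 (adjusted p = 0.00414) and for *Atf5* by 1.02 (adjusted p = 0.00385), males above females in both.

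Several chaperone genes varied together with *Hspa5* from mouse to mouse, and others did not. Over the 39 libraries and 12411 other genes, the 5 genes with the highest Pearson r with *Hspa5* in log2 CPM were *Syvn1* (0.884), a ubiquitin ligase of ER-associated degradation, *Dnajb11* (0.882), *Manf* (0.881), a secreted ER stress protein, *Creld2* (0.870) and *Hsp90b1* (0.865). After the group means were removed r was 0.874, 0.849, 0.900, 0.911 and 0.789 in the same order. For 20 other genes of the chaperone list the median r with *Hspa5* within groups was 0.435, and over all genes it was -0.00544. The 20 values ran from -0.056 for *Fkbp2* to 0.911 for *Creld2*. The points share libraries, scaling and depth, so these are descriptions without a test. Of the 4 of these 5 genes with a promoter window, 3 held the ER stress response element printed above, *Creld2*, *Hsp90b1* and *Syvn1*, and 7 of the 18 chaperone genes with a window held it.

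**Figure D5:**
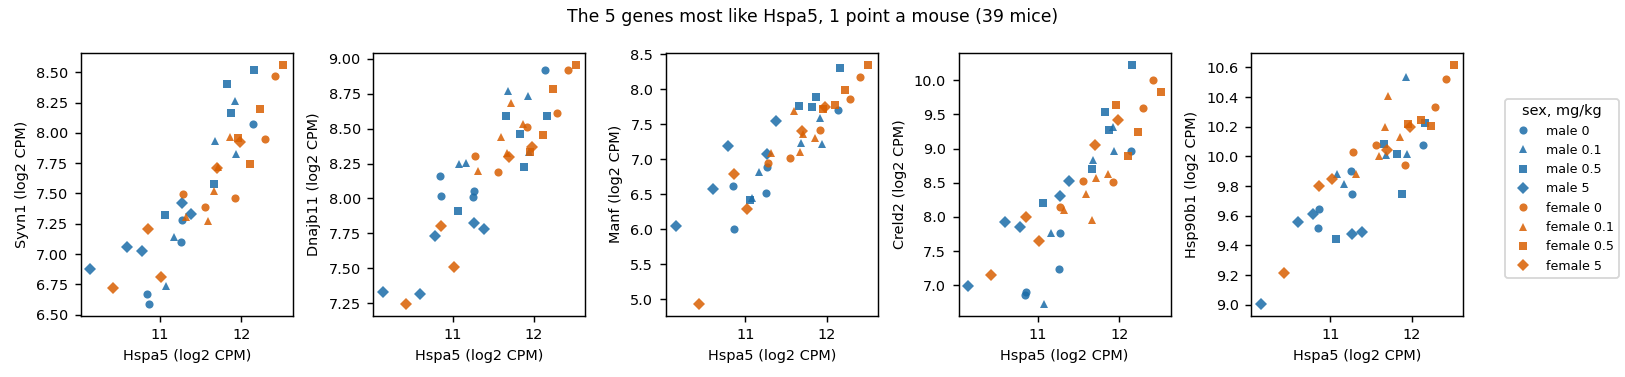
Level of the 5 genes with the highest Pearson r with *Hspa5* against the level of *Hspa5*, both in log2 CPM, 1 point per library (39 libraries), coloured by sex and dose. All 5 rise along the *Hspa5* axis, with r from 0.865 to 0.884.

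The genes most like *Asns* were *Adcy7* (0.700), *Zfp449* (0.662), *Sdr16c5* (0.634), *Smcp* (0.627) and *Ska2* (0.605). They had reads in 4 to 13 libraries and *Asns* in 8, so these values rest on a few libraries with a read and are no finding.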

How the data were processed

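TempO-Seq libraries of 40 mouse livers were used as a table of raw probe counts that the authors deposited, not normalized. Per the submitters' processing notes, reads were demultiplexed with bcl2fastq 2.17.1.14 and aligned with Bowtie, and the notes name the build mm10. Animal numbers in the table's header matched those in the sample titles, and the labels of each sample give sex and dose. One library of the 0.5 mg/kg females (mouse 355) lay more than 2 SD below the mean depth and was left out, leaving 39. All 30146 probes were filtered in edgeR 4.0.16 (R 4.3.3, limma 3.58.1), and 17877 were kept, fitted together over the 8 groups with TMM scaling and the quasi-likelihood test, and adjusted by Benjamini-Hochberg over all of them for 14 comparisons. Calls needed an adjusted p below 10%. Counts of all genes use the most counted probe of 12412 genes. Log2 CPM used a prior count of 2. The 95% intervals are 1.96 SE of that fit and carry the spread between mice. Counts have no molecular identifiers, and the limits set on counts of 0 cover counting error only. Reads were also divided by the tallest peak of each library's low read counts to estimate molecules.

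Named were the 10 members, up to 4 other genes of each list with the largest change among those called at 5 mg/kg or, with none called, the 2 most counted (marker lists are summarized), and the 5 genes most correlated with *Hspa5* and with *Asns*. The members and lists were chosen with earlier results of these data known. Alternatives were DESeq2 1.42.0, its size factors, no filter, all 40 libraries, molecules, each sex alone, probes summed by gene, other probes and leaving out each mouse. On simulated counts for males at 5 mg/kg against controls (16352 probes), 2 of 60 probes changed 1.5-fold, 3 of 61 changed 2-fold and 18 of 59 changed 4-fold were recovered, with 0 false among 23 calls. Promoters are RefSeq's on GRCm38.p6, and gene positions are from GENCODE M21. TempO-Seq probe sequences were not used here.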

Additional observations from a re-analysis of the deposited data

Results flagged for a closer look

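In 10 of 80 groups of values 1 mouse stood apart from the rest of its group by Dixon's test at the 95% level, which marks about 1 in 20 groups by chance. *Hspa5* was 4507 CPM in mouse 105 of the control males, the other 4 lying at 1839.9 to 2462 CPM. *Hsp90b1* was 1486 CPM in mouse 203 of the males at 0.1 mg/kg (others 901 to 1035 CPM), 514 CPM in mouse 401 of the males at 5 mg/kg (others 712 to 781 CPM) and 1569.7 CPM in mouse 353 of the females at 0.5 mg/kg (others 1183 to 1213 CPM). *Trib3* was 42.7 CPM in control female 155 (others 11.1 to 19.3 CPM). *Asns* was the lone value above 0 of its group in mouse 202 (2.71 CPM), mouse 303 (5.49 CPM), mouse 151 (2.21 CPM) and mouse 251 (2.50 CPM). *Creb3l3* was 577 CPM in mouse 401 of the males at 5 mg/kg (others 645 to 661 CPM).

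The response at 5 mg/kg differed between the sexes, by the interaction term of edgeR's quasi-likelihood test, for *Slc3a2* (1.22, adjusted p 0.00414) and *Atf5* (1.02, adjusted p 0.00385). In the library left out, mouse 355, *Xbp1* was 197 CPM where the female controls had 120.4 to 167 CPM, and *Atf4* was 1124 CPM where they had 339.6 to 495 CPM, with all 40 libraries scaled together.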

How the results depend on the processing

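Between the reported fit and an alternative, 1885 fold changes of the members and lists were compared. Of these, 1764 counted as unchanged, 46 passed the threshold newly and 63 no longer did. Another 12, listed below, changed sign with a call or by more than 1 SE. The 1764 include 78 values, uncalled in both fits, whose sign changed by less than 1 SE. The rest of the 1764 kept direction and side of the threshold. The number of members called moved as follows. With DESeq2 it was 3 in males at 5 mg/kg, 2 in females at 5 mg/kg and 1 between control sexes. DESeq2 called 1864 of 17852, 988 of 18333 and 1092 of 17571 probes in these comparisons. With DESeq2's size factors it was 1 between control sexes, beside 610 of 17877 probes called. Without the filter it was 2 in males at 5 mg/kg, 2 in females at 5 mg/kg, 1 in females from 0.1 to 0.5 mg/kg, 2 from 0.5 to 5 mg/kg and 2 between control sexes. With molecules it was 5 for males at 5 mg/kg and 2 for females, 2 in females from 0.5 to 5 mg/kg and 1 between control sexes. With all 40 libraries it was 0 in males at 0.5 mg/kg, at 5 mg/kg and from 0.5 to 5 mg/kg, and 0 in females at 5 mg/kg. The share of all probes called was not computed without the filter, with molecules or with all 40 libraries. For the lists at 5 mg/kg, DESeq2 called 2 sensors and factors in males and 3 in females and 2 synthetases in males, and its size factors left 1 degradation gene in females.

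Leaving out each of the 39 mice in turn gave 0 to 1 members called in males at 0.5 mg/kg, 1 to 2 at 5 mg/kg and 0 to 3 from 0.5 to 5 mg/kg, and in females 0 to 2 at 5 mg/kg, 0 to 1 from 0.5 to 5 mg/kg and 0 to 1 between control sexes, with 0 to 0 elsewhere. Sign changes came with other probes for *Hspa5* in males at 5 mg/kg (0.40 and 0.48), *Hsp90b1* in females at 0.5 mg/kg (-0.077), *Dnajb9* in females from 0.5 to 5 mg/kg (-0.83), *Xbp1* in males at 5 mg/kg (0.061), females at 0.5 mg/kg (0.32) and males from 0.5 to 5 mg/kg (0.38), *Atf4* in males at 0.5 mg/kg (0.31) and from 0.5 to 5 mg/kg (-0.24) and *Creb3l3* in males at 0.1 mg/kg (-0.077), and with all 40 libraries for *Hsp90b1* (-0.038) and *Creb3l3* (-0.20) in females at 0.5 mg/kg. The cause was not tested. The median of all genes in males at 5 mg/kg was 0.11 with TMM. Depth limits *Dnajb9*, *Ddit3*, *Trib3* and *Asns*, whose counts stand for few molecules.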

Other observations

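Control females and control males differed in several genes of the lists, named here after their values were seen. By edgeR's quasi-likelihood test the ATF4 relative *Atf5* was higher in control females by 0.75 ± 0.14 on the log2 scale (adjusted p = 0.000521), with every female above every male, at 1241 to 1517 against 711 to 923 CPM. The transcription factor gene *Cebpb* was higher by 1.10 ± 0.28 (adjusted p = 0.0164), the secreted ER stress protein gene *Creld2* by 1.35 ± 0.40 (adjusted p = 0.0591), the degradation gene *Edem1* by 0.47 ± 0.15 (adjusted p = 0.0858) and the transporter gene *Slc3a2* by 0.55 ± 0.17 (adjusted p = 0.079).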
